A study of Enchytraeus crypticus with 54 samples.

Results

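The comparison described here set the higher against the lower effect level of copper nanoparticles (Cu-NPs) after 3 days of exposure in *Enchytraeus crypticus*, a small soil oligochaete used in standard ecotoxicity tests. It was made of 6 of the 54 one-colour arrays of the series, chosen by their titles, namely 3 arrays of Cu-NPs EC50 and 3 arrays of Cu-NPs EC20. EC20 and EC50 are the concentrations in soil that lower reproduction by 20% and by 50%, so the question was which transcripts changed when the same particles were given for the same time at the more toxic level. Each array held RNA of 1 pool of 20 whole adults with a well developed clitellum, kept without food in natural soil from Hygum in Denmark, and each pool was a separate biological replicate. The 3 control arrays at 3 days came from worms in soil of the uncontaminated area of that site, with no copper added. The other groups of the series, of 3 arrays each, were the same particles and controls at 7 days, and copper nitrate (CuNO3, a soluble salt), copper nanowires (Cu-NWires) and soil with an aged field contamination (Cu-Field) at both effect levels and both days. Effect levels were matched between the forms, while the copper concentrations behind them were not.

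Copper is an essential metal, a cofactor of enzymes such as cytochrome c oxidase and copper-zinc superoxide dismutase, and is toxic in excess, when free ions bind thiol groups and feed the formation of reactive oxygen species. Animals hold free copper low with metallothioneins, glutathione, copper chaperones and copper-transporting ATPases. Metallic copper nanoparticles release ions as they dissolve in soil and can also reach an organism as particles, through the body surface or with ingested soil. The files named the probes of the array by contigs and sequencing reads of this species and paired none with a gene, so these pathways could not be followed by name, and the labelled tissue could not be checked against marker genes. Probes are therefore described by their level and behaviour. In pools of whole worms, less RNA per cell and fewer cells of a type cannot be told apart.

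Of 43750 non-control probes, 19499 carried the scanner software's flag for a positive signal significantly over background on all 54 arrays, and these were tested. Values are normalized log2 signals, in which the log2 processed signal of an array was shifted so that the median of the tested probes was equal on all arrays. Before this shift the EC50 arrays were the brighter ones, with medians of 6.42, 6.40 and 5.99 against 5.91, 5.90 and 5.50 on the EC20 arrays, and 47.2% to 60.4% against 39.8% to 53.2% of the probes were well above background. On the control arrays this share was 40.3% to 58.7%, a range that overlapped with both. After normalization, Pearson correlations over the tested probes were 0.946 to 0.964 between EC20 arrays, 0.943 to 0.981 between EC50 arrays and 0.914 to 0.960 between the groups. The value of 0.981 was that of replicates 2 and 3 of EC50, which shared a slide and a scan day. The median SD of a probe between replicates was 0.43 in the EC20 group and 0.40 in the EC50 group.

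From EC20 to EC50, 448 probes rose and 331 fell (limma over all 54 arrays, Benjamini-Hochberg adjusted p under 0.05), which is 2.30% and 1.70% of the tested probes and 4.0% together. The median rise was 2.32-fold (log2 change 1.22) and the median fall 3.22-fold (log2 change -1.69), with a median SE of 0.32 and 0.44. These sizes depended on the background correction, and with normexp the same lists had median log2 changes of 0.66 and -0.88. The arrays of both groups did not overlap for 423 of the rising and 307 of the falling probes, where 19.9% of all tested probes had groups that did not overlap. At an unadjusted p under 0.05 there were 4012 probes. The last probe called had an adjusted p of 0.0499 and a log2 change of 0.80 ± 0.24 (SE), and the first one left out had 0.0505 and -1.71 ± 0.52.

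**Figure D1:**
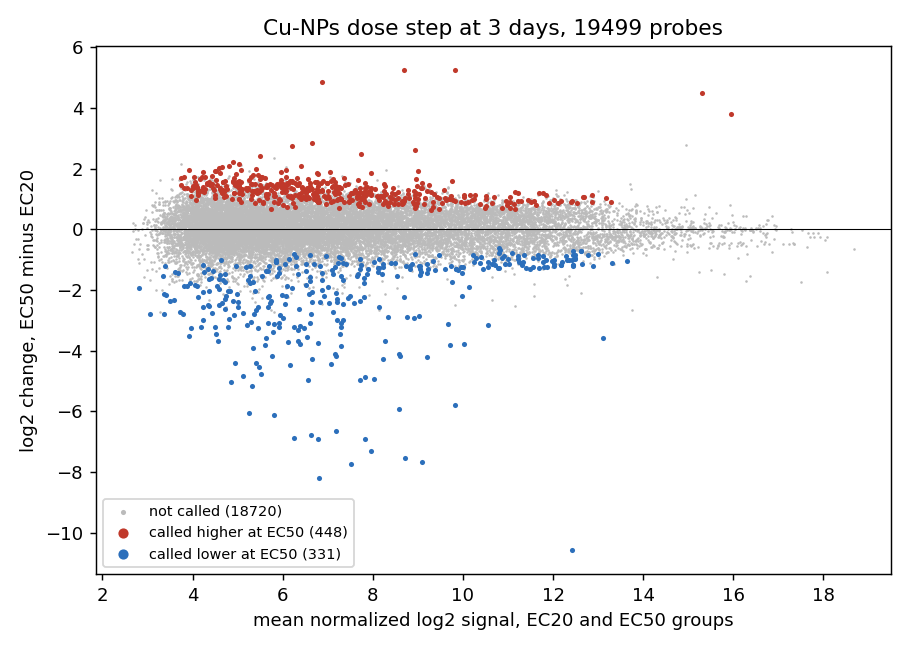
Each point is 1 of the 19499 tested probes, with the mean normalized log2 signal of the EC20 and EC50 groups on the horizontal axis and the log2 change from EC20 to EC50 on the vertical axis. The 448 probes called higher (red) form a narrow band near 1 log2 unit with few points above 2, while the 331 called lower (blue) reach down to -10.58.

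The called changes differed in size between the directions. Past 2-fold there were 344 rises against 293 falls, next to 4.64% of all tested probes that were higher and 5.07% that were lower by this much whatever the p, and past 4-fold there were 16 rises against 145 falls. Past 8-fold the counts were 5 and 74, past 16-fold 4 and 36, and past 64-fold 0 and 13. The largest rise was 38.1-fold and the largest fall 1531-fold. Among all tested probes, whatever the p, 21 were higher and 175 lower by over 4-fold. Some probes of both lists were not well above background in the group where they were lower, a stricter flag than the one used for the filter. All 448 rising probes were well above background on all 3 EC50 arrays but 325 on all 3 EC20 arrays. Of the 331 falling probes, 310 were well above background on all 3 EC20 arrays but 238 on all 3 EC50 arrays, and 22 on none of the EC50 arrays. For those 22 only a lower bound of the fall can be given, as for the rise of 26 probes not well above background on any EC20 array. With these probes at their bounds and the others at their fitted values, the median fall was 2.94-fold and the median rise 2.27-fold.

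**Figure D2:**
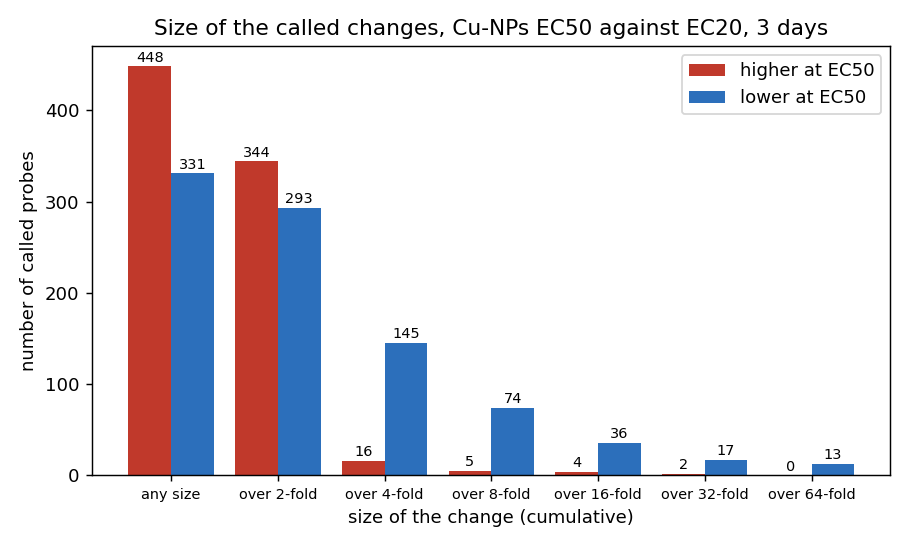
Bars give the number of called probes higher (red) and lower (blue) at EC50 than at EC20 after 3 days whose change exceeds the fold on the horizontal axis, each class including the larger ones. The red bar is the taller one at any size (448 against 331) and past 2-fold (344 against 293), and the blue one past 4-fold (145 against 16).

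The split into 448 and 331 depended on the scaling, the filter and the arrays in the fit, while large falls outnumbered large rises under most settings. SVCD normalization, which aligns the groups on genes that do not vary between conditions, gave 417 rises and 436 falls, of which 14 and 154 went past 4-fold. Rises were 44.4% of the calls after normexp background correction, 44.2% with probes well above background only and 36.6% with no filter, against 57.5% in the main comparison. They were 94.2% with no normalization. After scaling to the spike-in controls the median of all probes lay 0.61 higher at EC50, and 21 rises and 69 falls were called. Over 26 settings including the main one, falls past 4-fold outnumbered rises past 4-fold in 24. The exceptions were values with no normalization, with 122 rises and 106 falls past 4-fold, and the methods' t-test on the 6 arrays alone, which had 1 probe called after adjustment and 2500 at an unadjusted p under 0.05.

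The number of called probes rested on single arrays. Without replicate 1, 2 or 3 of the EC20 group it was 199, 1244 and 222, and without replicate 1, 2 or 3 of the EC50 group it was 1835, 182 and 204. All 779 probes kept their sign in each of these fits. The same arrays chose the probes, which nearly fixes the sign, so this is a description. Falls past 16-fold numbered between 29 and 40 in the same fits, and falls past 4-fold between 85 and 182. Rises past 4-fold numbered between 6 and 81, against 16 in the main comparison. When the fit held only the 6 arrays, 159 probes were called, 147 of them lower, and with only the 27 arrays at 3 days there were 385 rises and 425 falls. Rises were 41.2%, 54.9% and 45.5% of the calls without replicate 1, 2 or 3 of EC20, and 55.6%, 30.2% and 41.2% without replicate 1, 2 or 3 of EC50.

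The groups were spread unevenly over slides and scan days. No slide held arrays of both groups, since the EC20 arrays lay on slides 6, 7 and 13 and the EC50 arrays on slides 4 and 11, and both days of scanning held arrays of both. Replicates 2 and 3 of EC50 were both on slide 11. They are the EC50 arrays left in the fit without replicate 1, which called 1835 probes. On the first scan day (2 EC20 arrays and 1 EC50 array) the median change was 0.92 for the rising and -1.40 for the falling probes, and on the second (1 EC20 array and 2 EC50 arrays) it was 1.40 and -2.02. Over all tested probes these medians were 0.10 and 0.01. The same 6 arrays chose the lists, which nearly fixes their direction within a day, so the values within a day are a description. With scan day in the fit 704 probes were called, with slide as a random block 767, and with slide as a fixed block, which compares these groups through arrays of other groups, 40 (11 higher and 29 lower). A replicate block within these 6 arrays, in the fit over all 54, gave 960 probes, with 777 of the 779 among them. With only the 6 arrays in the fit the same block gave 161 (13 higher and 148 lower).

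The levels of both lists were set against the control group. The 331 falling probes had a median difference from the control of -0.06 at EC20 and -1.75 at EC50, and the 448 rising probes of 0.11 at EC20 and 1.29 at EC50. Over all tested probes these medians were 0.02 and 0.05. With SVCD normalization the difference of the falling probes at EC20 was 0.03, so its sign depended on the scaling, and that at EC50 was -1.72. By array, the median level of the falling probes was 8.59, 8.32 and 8.13 in the controls, 8.45, 8.03 and 8.72 at EC20 and 5.90, 5.74 and 5.82 at EC50. The ranges of the EC20 and control arrays overlapped, and all EC50 arrays more than 2 log2 units below both. For the rising probes the levels were 5.90, 5.98 and 6.15 in the controls, 5.89, 6.49 and 5.95 at EC20 and 7.20, 7.52 and 7.51 at EC50. Replicate 2 of EC20 stood nearest to the EC50 arrays in both lists. In tests against the control, EC50 changed 3530 probes (18.1% of those tested, with 2184 or 11.2% higher and 1346 or 6.90% lower) and EC20 changed 0 by limma, with 862 probes at an unadjusted p under 0.05 and 0 by the methods' t-test after adjustment. The count for EC50 was 192 by the methods' t-test after adjustment. By limma it was 4679, 1371 and 1369 without its replicate 1, 2 or 3. Without replicate 1, 2 or 3 of the control it was 1883, 1880 and 2850. That for EC20 was 3 without its replicate 1 or without replicate 2 of the control, and 1 without its replicate 3. These comparisons share arrays with the step and with each other, so their values are given beside it only.

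Compared with the whole series, the EC50 group at 3 days had the lowest mean of all 18 groups for 275 of the 331 falling probes (83.1%, against 8.24% of all tested probes). It had the highest mean for 338 of the 448 rising probes (75.4%, against 17.5%). Since the step was used to choose these probes, the shares describe the lists.

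The 4 probes named here were the first 2 in each direction by size of change among 526 called probes (308 higher, 218 lower) that did not overlap, were well above background on all 6 arrays and carried no outlier flag there. The probe of read GYUW2K401EIO4R fell most. Its normalized log2 signal was 17.90, 17.24 and 18.01 on the EC20 arrays and 5.91, 7.99 and 7.51 on the EC50 arrays, with 18.32, 17.51 and 18.05 in the controls. In processed signal, this was a decrease from between 97883 and 154843 to between 54.7 and 228. The probe was far dimmer in all EC50 pools than in any EC20 or control pool. In replicates 2 and 3 of EC50 it still lay above the median of all tested probes, which was 6.56. The log2 change was -10.58 ± 1.48 (SE, adjusted p = 3.04e-05, lower in 3 of 3 pools), or 1531-fold.

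The probe of contig10760 fell 203-fold, with a log2 change of -7.67 ± 0.60 (SE, limma, adjusted p = 1.79e-11). Its levels were 13.13, 11.91 and 13.73 at EC20 and 4.47, 5.11 and 6.19 at EC50. The controls, at 12.78, 12.90 and 11.94, lay within the range of EC20, and no control or EC20 array came within 5 log2 units of an EC50 array. Across the other 48 arrays of the series its lowest value was 10.29.

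The probe of read GYUW2K402G3ZB3 rose 37.7-fold, with a log2 change of 5.24 ± 0.51 (SE, limma, adjusted p = 1.15e-08). It stood at 6.55, 5.82 and 5.88 at EC20 and at 12.35, 10.91 and 10.71 at EC50, with 6.53, 6.30 and 6.50 in the controls. The EC20 and control arrays formed 1 dim cluster, and the 3 EC50 pools lay well apart from it.

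The probe of read GYUW2K402HZ4GY had a change of the same size but a much wider spread, 38.1-fold with a log2 change of 5.25 ± 1.32 (SE, limma, adjusted p = 0.0185). Its levels were 9.07, 6.44 and 6.09 at EC20 and 16.67, 11.09 and 9.59 at EC50, with 6.98, 6.92 and 7.11 in the controls. The lowest EC50 pool exceeded the highest EC20 pool by little, and replicate 1 of EC50 carried much of the change. Without that array the log2 change was 3.14 with an adjusted p of 0.109, and without replicate 3 of EC20 it was 4.70 with an adjusted p of 0.09. Its limma call was also lost with spike-in scaling (adjusted p = 0.0524), normexp (0.0626), slide as a fixed block (0.0625) and only the 6 arrays in the fit (0.206). By the methods' t-test on the 6 arrays none of the 4 named probes passed the threshold after adjustment.

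**Figure D3:**
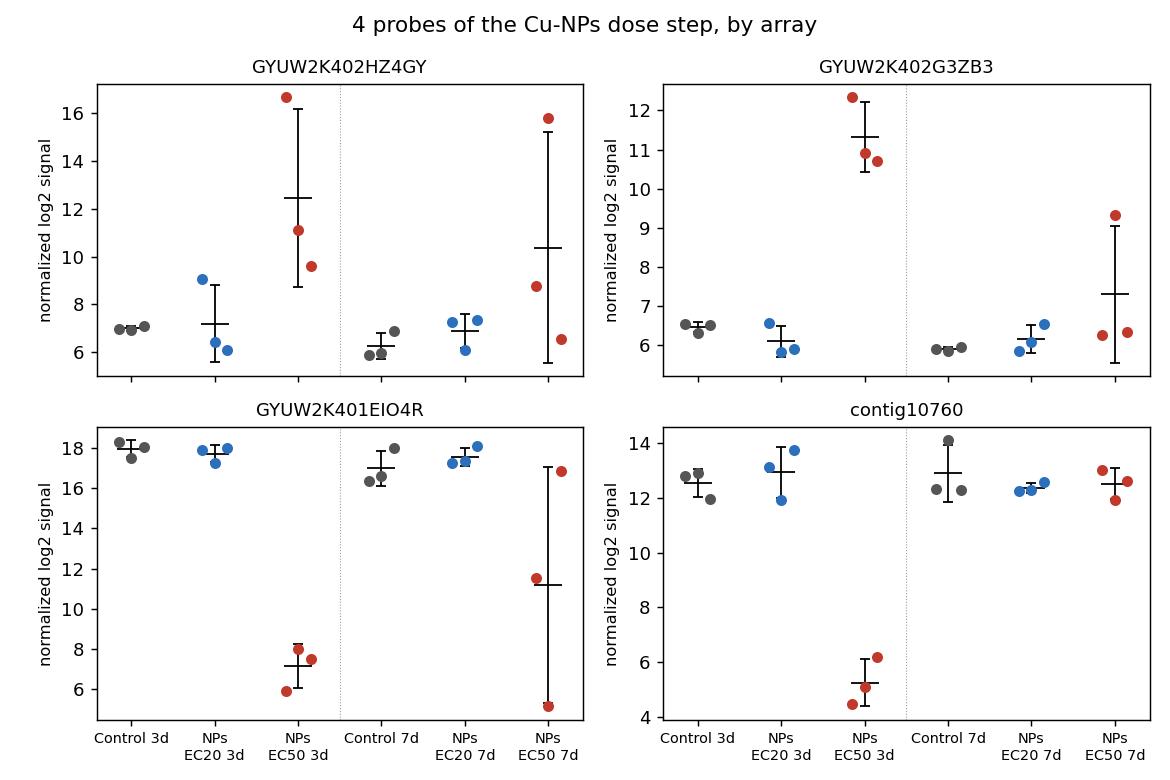
Normalized log2 signal of 4 probes in the controls (grey), Cu-NPs EC20 (blue) and Cu-NPs EC50 (red) at 3 and 7 days, with 1 point per array, black marks for the mean and bars for the SD (n = 3). At 3 days the red points do not overlap with the others for any probe. For GYUW2K402HZ4GY, though, the lowest red point (9.59) lies near the highest blue one (9.07). At 7 days the red points of contig10760 lie at 11.92 to 13.01 beside the controls, and those of the other probes spread widely.

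The 36 probes that fell by over 16-fold had correlated levels outside the step, where a few pools lay far from their group means. Their median level was 9.61, 9.26 and 10.74 on the EC20 arrays, 4.03, 3.85 and 4.88 on the EC50 arrays and 9.90, 9.51 and 8.85 in the controls. All 36 were well above background on the 3 EC20 arrays, 15 on the 3 EC50 arrays and 6 on none of those. With these 6 at their bounds and the other probes at their fitted values, 35 of the 36 were past 16-fold and the median fall was 30.1-fold. With normexp background correction the median log2 change of the 36 was -3.20 against -4.97, and 9 called probes fell by over 16-fold. Their deviations from the group means on the 48 arrays outside the step had a mean pairwise correlation of 0.82, compared with 0.47 for the 331 falling probes, 0.34 for the 448 rising ones and 0.02 for all tested probes. These arrays share slides and scan days, and probes can share a transcript, so the correlation is a description. Pools far from their group mean can weigh heavily in it, as in Cu-NPs EC50 at 7 days with medians of 5.51, 3.48 and 8.98. It was not recomputed without such pools. In those 48 arrays the median of the 36 probes was 8.78, and 2 arrays lay at or below the highest EC50 value of 4.88. They were replicate 2 of Cu-NPs EC50 at 7 days with 3.48 and replicate 1 of Cu-Field EC50 at 7 days with 4.83.

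The 16 probes that rose by over 4-fold had medians of 5.58, 5.14 and 4.74 at EC20, 8.45, 7.47 and 7.54 at EC50 and 5.17, 4.85 and 5.44 in the controls. In contrast to the large falls, none of the other 48 arrays reached the lowest EC50 value, and the highest of them, with 6.71, was again replicate 2 of Cu-NPs EC50 at 7 days. All 16 probes were well above background on the 3 EC50 arrays, 8 on the 3 EC20 arrays and 1 on no EC20 array. With normexp background correction the median log2 change of the 16 was 1.40 against 2.53, and 8 of them were called.

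**Figure D4:**
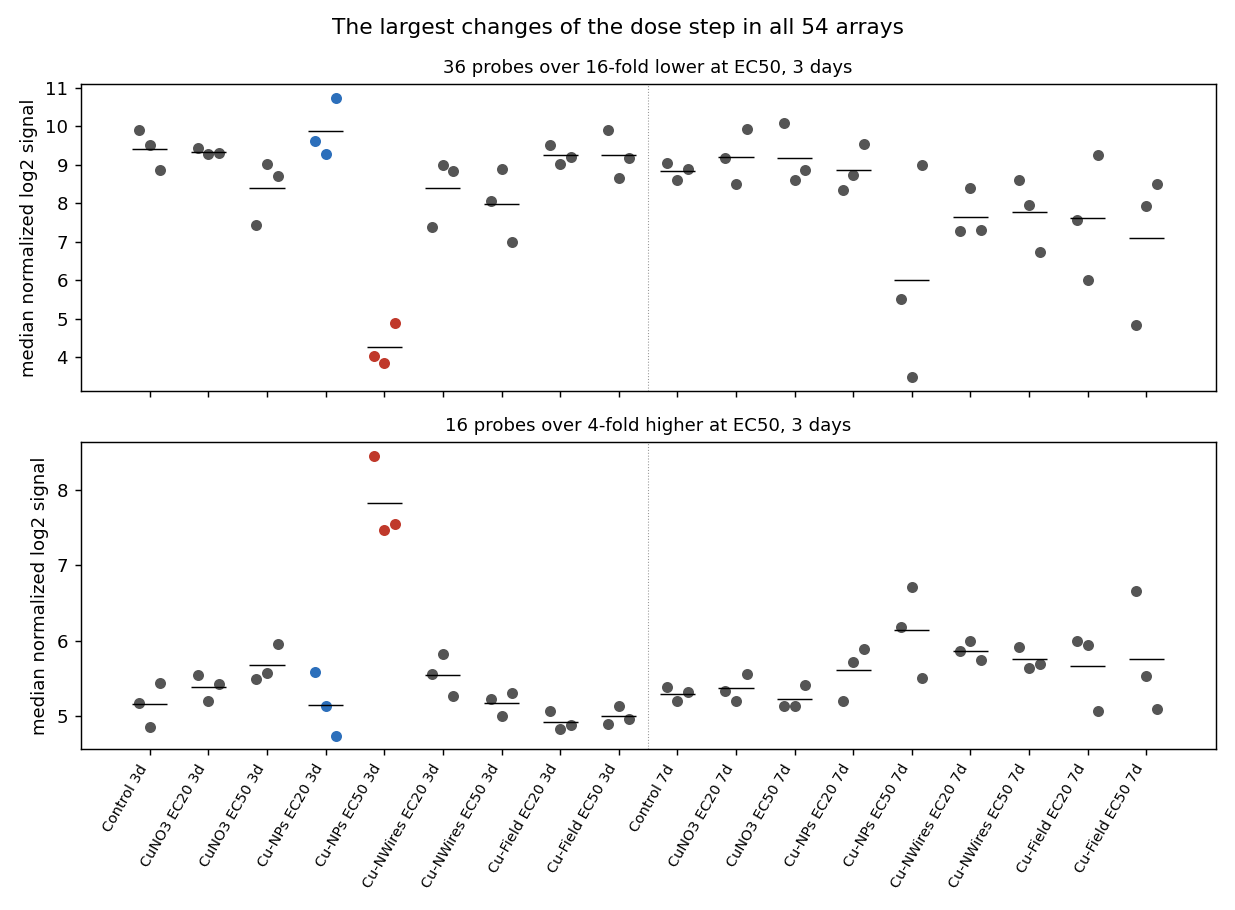
Median normalized log2 signal over the 36 probes that fell by over 16-fold (top) and the 16 that rose by over 4-fold (bottom) in each of the 54 arrays, by group, with black lines for group means, blue for Cu-NPs EC20 and red for Cu-NPs EC50 at 3 days. The red points choose the lists and lie between 3.85 and 4.88 (top) and 7.47 and 8.45 (bottom), and among the other arrays single pools at 7 days approach them.

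The 7-day arrays of the same particles, which were not among those compared in the 3-day step, gave the step at the later day. They did enter the signal filter and the estimate of each probe's spread. Their part in which probes were called was therefore not nil, and the 7-day values are not fully independent of the lists. The 331 falling probes had a median change of -0.82 between EC20 and EC50 at 7 days, where the median of all tested probes was -0.10, and 315 of them (95.2%, against 55.8% of all) were lower at EC50. The 448 rising probes had a median of 0.27, and 336 of them (75%, against 44.2%) were higher. On the spike-in scale the median of all probes at 7 days was shifted by 1.65 and the median of the falling probes was 0.93, so that their direction held there only relative to the other probes. The 7-day step called 745 probes (3.82%), of which 48 were also called at 3 days, or 6.16% of the 3-day list and 6.44% of the 7-day list. All 48 had the same direction, with 36 lower and 12 higher, where 2.18% and 1.64% of all probes were called lower and higher at 7 days. The count of 745 depended strongly on the scaling. It was 4305 with SVCD, 14942 with spike-in scaling, 203 with no normalization, 4 with normexp and 0 by the methods' t-test after adjustment, and the overlap was not recomputed for these.

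At 7 days the pools of the EC50 group differed from each other. The median level of the 36 probes was 8.35, 8.73 and 9.53 on the EC20 arrays and 5.51, 3.48 and 8.98 on the EC50 arrays, so replicates 1 and 2 were low and replicate 3 lay among the EC20 pools. Of the 331 falling probes, 61 (18.4%) had groups that did not overlap at 7 days, and of the 448 rising ones 53 (11.8%). Both shares were below the 31.2% of all tested probes. This held for 5 of the 36 falls past 16-fold and for 0 of the 16 rises past 4-fold. For GYUW2K401EIO4R the 7-day levels were 17.23, 17.34 and 18.08 at EC20 and 11.54, 5.14 and 16.85 at EC50, a log2 change of -6.38 (limma, adjusted p = 0.0436).

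The change of the step between the days was tested as an interaction. It called 2 probes (0.0103% of those tested, with 3203 at an unadjusted p under 0.05), and both were among those named above. For contig10760 the step was -7.67 at 3 days and 0.16 at 7 days, a difference of 7.82 (limma, adjusted p = 3.33e-07), with EC50 levels of 13.01, 11.92 and 12.61 at 7 days. For GYUW2K402G3ZB3 it was 5.24 and 1.15, a difference of -4.09 (adjusted p = 0.0158), with EC50 levels of 6.23, 9.32 and 6.32 at 7 days. The count was 1 without replicate 2 or 3 of EC20 or replicate 1 of EC50 at 3 days and without replicate 2 or 3 of EC20 or replicate 1 or 3 of EC50 at 7 days. With replicate 3 of EC50 at 3 days, or replicate 1 of EC20 or replicate 2 of EC50 at 7 days, left out there were 3. The 7-day change was more positive than the 3-day change for 325 of the 331 falling probes. It was more negative for 441 of the 448 rising probes. A list chosen at 3 days tends to have this direction. Not all of these were smaller changes of the same sign. At 7 days 16 of the falling probes were higher and 112 of the rising ones lower at EC50.

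The steps of the other copper forms at 3 days were small. None called a probe, and 274 (CuNO3), 897 (Cu-NWires) and 517 (Cu-Field) probes passed 0.05 before adjustment. No probe passed the methods' t-test after adjustment either. The falling probes were lower at EC50 of CuNO3 as well, in 324 of 331 cases (97.9%, against 46.4% of all), with a median of -0.42. The rising ones were higher in 353 of 448 (78.8%, against 53.6%), with a median of 0.16. By array, the median of the rising probes was 6.72, 6.43 and 6.54 at EC20 of CuNO3 and 6.78, 6.25 and 7.16 at EC50, so that replicate 2 of EC50 lay below all EC20 arrays and replicate 3 was the highest. That of the falling probes was 8.17, 7.97 and 8.15 at EC20 and 7.13, 7.91 and 7.37 at EC50, with all EC50 arrays below the EC20 arrays, replicate 2 only just. In all 6 scaling and background alternatives both medians kept these signs. In Cu-NWires the medians were -0.04 for the falling and -0.11 for the rising probes, and in Cu-Field 0.06 and 0.11, next to 0.05 and 0.07 for all tested probes. At EC50 of Cu-NWires 56.8% of the falling and 65.0% of the rising probes were lower, against 43.7% of all. With SVCD normalization, which shifted all probes of the Cu-Field step to -0.30, its medians were -0.31 and -0.26. A small step does not mean a level equal to the control. Already at EC20, the rising probes had median differences from the control of 0.78 (Cu-NWires), 0.50 (CuNO3) and 0.27 (Cu-Field). Those of the falling probes were -0.77, -0.30 and -0.34, and those of all tested probes -0.11, 0.04 and -0.13. At EC50 of Cu-NWires the rising and falling probes had 0.63 and -0.92. Over all tested probes the log2 changes of the Cu-NPs step correlated with those of CuNO3 (Pearson r = 0.40), Cu-NWires (0.07), Cu-Field (0.10) and the 7-day step (0.30), as a description over probes, which are not independent replicates.

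**Figure D5:**
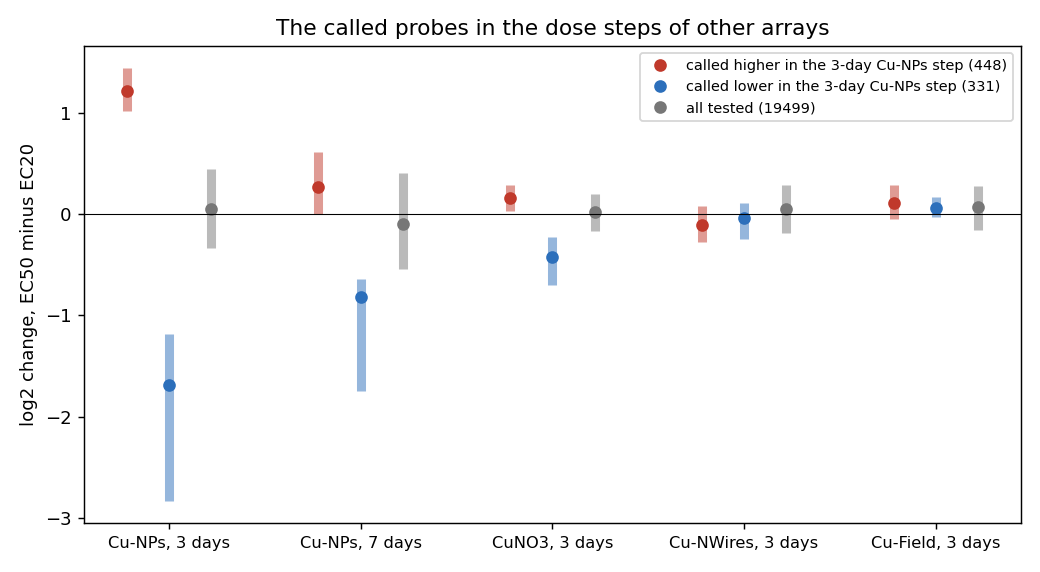
Log2 change from EC20 to EC50 in 5 steps made of different arrays, with the median (point) and the middle 50% (bar) of the probes called higher (red) and lower (blue) in the 3-day Cu-NPs step and of all tested probes (grey). The first column chose the lists, and the blue median lies below the grey one by 0.72 for Cu-NPs at 7 days and by 0.44 for CuNO3, and near it for Cu-NWires and Cu-Field.

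The difference between the step of the nanoparticles and the mean step of the other 3 forms was past the threshold for 73 probes (0.374%), with 25 (0.128%) more positive and 48 (0.246%) more negative for Cu-NPs. All 73 were called in the step itself, and 29 of them were among the 36 largest falls. The difference contains that same step, and the steps of the other forms were small. This overlap was therefore nearly fixed in advance and is a description. The median difference of the 25 was 1.74 and that of the 48 was -4.05. Against single forms, the step of Cu-NPs differed in 3 probes from that of CuNO3 (0.0154%), in 16 from Cu-NWires (0.0821%) and in 9 from Cu-Field (0.0462%). With p-values adjusted over these 3 pairs of forms together, the counts were 3, 12 and 9. The 331 falling probes had a median difference of -1.35 from the CuNO3 step. Since the Cu-NPs step chose these probes and is part of the difference, its sign was nearly fixed. In this comparison 1078 of all tested probes had an unadjusted p under 0.05, and the median SE of the difference was 0.53. The count of 73 depended on single arrays of the step, with 18, 251 and 12 without replicate 1, 2 or 3 of EC20 and 251, 13 and 24 without replicate 1, 2 or 3 of EC50. Of the other arrays, leaving out replicate 2 of Cu-NWires EC50 gave 28, replicate 3 of Cu-Field EC50 45, replicate 1 of Cu-Field EC20 48 and replicate 3 of CuNO3 EC50 113, and without any other array the count was 53 to 91.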

How the data were processed

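Arrays were grouped by title, and the probes and lists were chosen with earlier results of these data known. The values used were processed signals, linear intensity values deposited by the authors as scanner output of Agilent Feature Extraction 10.7.3.1, with background subtracted and no normalization between arrays. The value table deposited by the authors holds the same intensity values rounded. By its header, that table had 0 columns that belong to no sample of the series. Non-control probes with the positive and significant flag on all 54 arrays were log2 transformed and centred on the array median, as in Median normalization of the study, with the overall median added back. R 4.3.3 and limma 3.58.1 fitted 1 mean per group over 54 arrays, with Benjamini-Hochberg adjustment within each comparison and a threshold of 0.05. The number of arrays, 3 per group, limits the precision, and no non-control spot was saturated. A bound sets a probe not well above background on any array of its dim group at the lowest signal well above background of each array, or its own if higher. Named probes were the first 2 in each direction among called, non-overlapping, unflagged probes well above background on all 6 arrays, ranked by size. Deviations of same-numbered EC20 and EC50 arrays from their group means correlated at 0.43, 0.13 and 0.11, each over the 0.1 set for treating the numbers as pairs. Arrays of different numbers reached 0.26, 1 of 3 numbers was its own best match, and no label ties a number to a shared batch, so the pairing is uncertain. Alternatives covered scaling, background correction, filters, arrays in the fit, batches, replicate blocks, the methods' t-test and arrays left out. The normexp correction used median signals. The fit was also run on simulated data with independent normal noise and no effect of slide or scan day. That run cannot speak to such effects. Figures were drawn with matplotlib 3.10.9.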

Additional observations from a re-analysis of the deposited data

Results flagged for a closer look

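The Cu-NPs dose step differed between 7 and 3 days by the interaction test in 2 probes, contig10760 and GYUW2K402G3ZB3, both with the larger change at 3 days. It differed from the mean step of the other copper forms at 3 days in 73 probes.

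Among the probes outside the tested set, 170 were well above background on all 3 EC50 arrays of Cu-NPs at 3 days and on none of the EC20 or control arrays, a signal in data that the comparisons did not use. The difference was not tested. The reverse, on all control and EC20 arrays and no EC50 array, held for 44. Without regard to the control and the filter, 629 of 43750 probes were well above background on all EC50 and no EC20 arrays, and 73 the reverse. In the 7-day step of the same particles these counts were 600 and 46. At 3 days the CuNO3 step had 30 and 40, the Cu-NWires step 26 and 85 and the Cu-Field step 15 and 175. The EC50 arrays of Cu-NPs at 3 days also had more probes well above background in all (47.2% to 60.4%, against 39.8% to 53.2% at EC20), and its part in these counts was not tested.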

How the results depend on the processing

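The step from EC20 to EC50 had 25 alternatives for its count of 779 probes, of which 11 stayed within 1.5 times and 14 did not. The latter were spike-in scaling (90), no normalization (2680), normexp (117), no filter (453), only the 6 arrays in the fit (159), slide as a fixed block (40), the methods' t-test (1), the replicate block with only the 6 arrays (161) and the 6 fits that each left out 1 array of the step (182 to 1835). All 779 probes kept their sign under each alternative that tested them, except that normexp kept 766. Since the same arrays chose these probes, their sign was nearly fixed in advance. The share of rises among the calls passed below 50% with SVCD (48.9%), spike-in scaling (23.3%), normexp (44.4%), the filter on probes well above background (44.2%), no filter (36.6%), only the 6 arrays (7.55%), only the arrays at 3 days (47.5%), slide as a fixed block (27.5%) and the replicate block with only the 6 arrays (8.07%), and ranged from 30.2% to 55.6% with 1 array left out. A replicate block over all 54 arrays called 773 probes, and a block set within the 6 arrays of the step, in the fit over all 54, called 960. For EC50 against the control (3530 probes) the counts outside 1.5 times were 1268 with spike-in scaling, 1111 with normexp, 1767 with only the arrays compared, 159 with slide as a fixed block and 192 by the methods' t-test, and 1369 to 4679 with 1 array left out. For EC20 against the control (0 probes) there were 4 with no filter and 0 to 3 with 1 array left out. The difference between the days (2 probes) had 5 with quantile normalization, 1 with no normalization or only the arrays compared, 0 with slide as a fixed block and 1 to 3 with 1 array left out. The difference from the other forms (73 probes) had 164 with SVCD, 119 with quantile normalization, 21 with spike-in scaling or the filter on probes well above background, 316 with no normalization, 12 with normexp, 151 with only the arrays compared, 173 with only the arrays at 3 days, 2 with slide as a fixed block and 12 to 251 with 1 array left out. The causes of these shifts were not tested. The replicate block within or with only the 6 arrays, the random slide block, the counts past a fold and the fits without a control array, a 7-day array or an array of another form were chosen after seeing the data. With 3 arrays a group the median SE of a log2 change was 0.37, and dim probes are limited by the background of the array.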

Other observations

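Falling and rising probes differed in how bright they were and in their source in the array design. In 5 equal classes of mean brightness over all arrays, from dimmest to brightest, 0.872%, 1.15%, 2.00%, 2.05% and 2.41% of the tested probes were called lower from EC20 to EC50, while 1.31%, 2.56%, 3.28%, 2.97% and 1.36% were called higher. Of the 9143 tested probes named by contigs, 1.16% fell and 2.22% rose, and of the 10356 named by single reads 2.17% and 2.37%. The 36 falls past 16-fold comprised 10 contig and 26 read probes. These are descriptions of the calls, with no test.

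The named probes moved in the same few pools outside the step. On replicate 2 of Cu-NPs EC50 at 7 days, GYUW2K401EIO4R had its lowest level of the other 48 arrays (5.14), and GYUW2K402HZ4GY (15.80) and GYUW2K402G3ZB3 (9.32) their highest. On replicate 1 of Cu-Field EC50 at 7 days they followed with 8.30, 10.01 and 8.65. For GYUW2K401EIO4R, the next were 11.54 on replicate 1 of the former group and 13.82 on replicate 1 of CuNO3 EC50 at 3 days, and the remaining 44 arrays were at 14.67 or above. The probe of contig10760 had no such low value in any of these pools.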
